A study of Mus musculus with 16 samples.

Results

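The cells described here are light zone (LZ) germinal center (GC) B cells that held *Myc* transcript while their S phase and mitosis genes were low. They numbered 78 of the 637 cells in the matrix (12.2%). Single cells were sorted from popliteal lymph nodes of 8 male host mice, primed with ovalbumin at 6 to 8 weeks of age, that had each received B1-8hi BTKC481S and B1-8hi BTKWT B cells and were boosted with NP-OVA. All sorted cells descended from transferred B1-8hi B cells, whose engineered heavy chain lets those with lambda light chains bind the hapten NP strongly. BTKC481S is a point mutation that leaves the kinase BTK insensitive to acalabrutinib, a covalent BTK inhibitor. Hosts A7, A8, A10, A11 and A12 received acalabrutinib in 3 oral doses, and hosts V5, V7 and V9 received vehicle alone. The cell names carry the host, the plate and the well but no genotype, so BTKC481S and BTKWT cells of a host were pooled, and each genotype's own response could not be compared here. The mutation leaves the BTKC481S cells of every acalabrutinib host insensitive to the drug, which limits these hosts as a model of inhibition. The host is the replicate throughout. No cell name occurred in more than 1 host, and the sources used here do not say which host belonged to which of the independent sorting experiments.

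MYC is a transcription factor that pairs with MAX on E-box sequences and raises the output of genes for ribosome assembly, nucleotide synthesis and other parts of cell growth. In the GC, *Myc* is turned on in a minority of LZ B cells after antigen capture and help from T follicular helper cells through CD40, and it precedes re-entry into the cell cycle and return to the dark zone. CD40 signals through the NF-kB transcription factors, and *Bcl6* and *Bach2* encode repressors that maintain the GC program.

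Members were chosen by measured values. Counts were scaled to the total of each cell and are given as CPM, the usual unit of relative abundance. An M score was the mean log2(CPM + 1) of *Ccnb1*, *Ccnb2*, *Cdc20*, *Plk1*, *Cenpe*, *Cenpf*, *Hmmr* and *Tpx2*, which act in mitosis. An S score was the same mean over *Mcm3*, *Mcm5*, *Mcm6*, *Cdc6*, *Gins2*, *Pcna*, *Rrm2* and *Ccne2*, which act in DNA replication. The 127 cells with the highest M scores (M-high) and then the 170 with the highest S scores (S-high) were set aside. Of the 340 low-cycling cells that remained, 78 had at least 10 CPM of *Myc* and are the members (22.9%), 257 had no *Myc* count and are the Myc-zero cells, and 5 had a count under the limit. The M score limit fell between 5.36 and 5.37, and the S score limit between 5.35 and 5.40. The lowest members had 38.5, 39.1 and 101.9 CPM of *Myc*, and the highest cell under the limit had 7.38 CPM. The limit therefore lay in a gap, with a median of 571 CPM and a maximum of 2241 CPM among members. The level of *Myc* and of the score genes in members is given as a description only, without a test against the other cells.

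The members carried the markers of GC B cells. Among all 78 members, *Cd79a* had a count in 78 cells, *Pax5* in 75, *Bcl6* in 62 and the LZ marker *Cd83* in 76. The defining T cell genes *Cd3d*, *Cd3e* and *Cd3g* had a count in 0, 1 and 1 member cells, and the macrophage genes *C1qa*, *Lyz2* and *Csf1r* in 0, 1 and 1. The macrophage gene *Adgre1* had a count in 34 members (43.6%) and in 87 Myc-zero cells (33.9%), at 0.373 to 2.78 CPM in the summed members and 0.726 to 13.1 CPM in the summed Myc-zero cells. Of 10 T cell markers 1 (*Lck*, the most abundant) reached the level needed for testing, as did 1 of 10 macrophage and monocyte markers (*Cd68*) and none of the follicular dendritic and stromal markers. The summed T cell markers reached 865 CPM in the members of A10, against 113 to 280 CPM in the members of A8, A11, A12 and V9, and 54.9 and 80.0 CPM of this were *Cd3g* and *Trac*. In the Myc-zero cells they summed to 180 CPM in A8, 514 in A10, 345 in A11, 261 in A12 and 343 in V9. The macrophage list summed to 2.78 to 59.2 CPM in members and 1.11 to 80.9 CPM in Myc-zero cells, with 4 genes at 0 in every library. The part of these transcripts in the results was not tested.

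Members and Myc-zero cells also differed in depth and in their place in the cycle. Members had a median of 4130 genes detected and 839081 counts, against 3450 genes and 687213 counts in Myc-zero cells. The median S score was 3.148 in members and 1.22 in Myc-zero cells, although both lay below the limit. Split into equal parts by S score, 11 of the 113 low-cycling cells with the lowest scores were members (9.73%), 23 of the next 113 (20.4%) and 44 of the 114 with the highest (38.6%). The name "before S phase" thus rests on a score limit, not on DNA content, and members lay towards the S side of the low-cycling cells. Results are therefore also given against Myc-zero cells chosen to be nearest to each member in genes detected and S score within the same host. These had medians of 4008 genes and an S score of 2.65, against 4184 and 3.153 in the members of the hosts compared.

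The share of low-cycling cells that expressed *Myc* varied widely between hosts. It was 8% in A7 (2 of 25 cells), 14.5% in A8 (9 of 62), 20% in A10 (5 of 25), 41.2% in A11 (21 of 51) and 23.4% in A12 (11 of 47). In vehicle hosts it was 10.3% in V5 (4 of 39), 11.1% in V7 (3 of 27) and 35.9% in V9 (23 of 64). Hosts A11 and V9, one from each treatment, stood highest and together supplied 44 of the 78 members. Their exact binomial 95% intervals, which cover counting error only, were 27.6% to 55.8% and 24.3% to 48.9%, while the interval of A7 was 0.984% to 26.03%. Over hosts the share was 21.4% ± 12.5 (SD, n = 5) with acalabrutinib and 19.1% ± 14.6 (n = 3) with vehicle, a difference of 2.32 percentage points (exact two-sided permutation test, p = 0.786, where the smallest possible p is 0.0357). The groups overlapped over nearly their whole range, and the difference changed sign when A11, V5 or V7 was left out.

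*Myc* expression was not restricted to cells low in cycle genes. Over the 8 hosts the share with at least 10 CPM was 20.6% ± 12.3 (SD) in low-cycling, 24.9% ± 15.3 in S-high and 24.0% ± 16.9 in M-high cells. Within hosts, S-high exceeded low-cycling cells by 4.31 ± 6.87 percentage points, in 6 of 8 hosts (exact two-sided sign-flip test, n = 8, p = 0.133, adjusted p = 0.266 over 2 comparisons). The mean difference between M-high and low-cycling cells was 3.47 ± 15.8 points, positive in 4 of 8 hosts (the same exact test, p = 0.539, adjusted p = 0.539). Its median over hosts was -1.44 points, and its mean without A10 was -0.32. Neither difference was larger than the spread between hosts. The M-high share ranged from 0% of 7 cells in A8, where a count of 0 allows a share of up to 41.0% (exact binomial interval), to 50% of 12 cells in A10. After every cell was thinned to 459128 counts, which left out 64 shallower cells, the differences were 3.66 and 5.31 points.

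**Figure D1:**
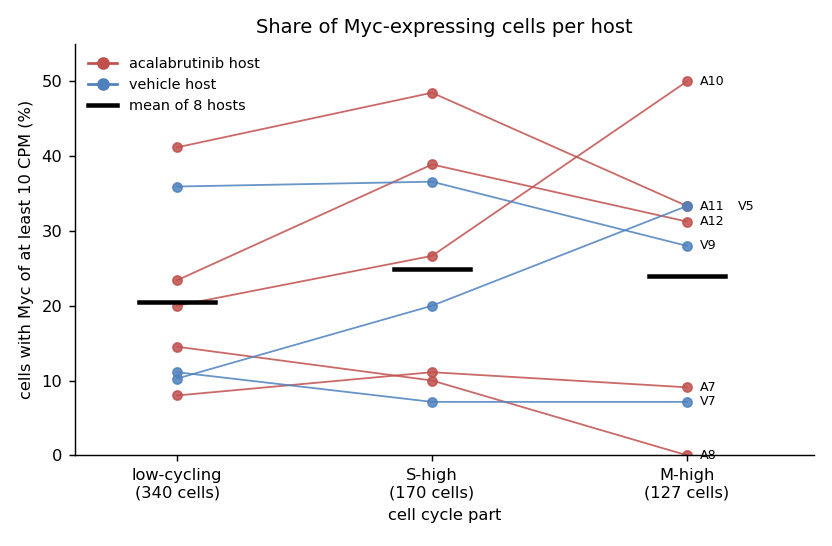
Percentage of cells with at least 10 CPM of Myc (vertical axis) among low-cycling, S-high and M-high cells (horizontal axis), 1 point and line per host, red for acalabrutinib and blue for vehicle, with black bars for the mean of 8 hosts. The low-cycling means and S-high means are 20.6% and 24.9%, and A11 and V9 lie highest among low-cycling cells.

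Among the members themselves the *Myc* level spanned a wide range within hosts. The median over a host's members was 980 CPM in A7, 715 in A8, 321 in A10, 510.0 in A11, 494 in A12, 656 in V5, 776 in V7 and 663 in V9. Host A10 had the lowest median, and the ranges of A8 (356 to 2241 CPM), A11 (185 to 1281 CPM), A12 (102 to 1480 CPM) and V9 (38.5 to 1544 CPM) overlapped. Members came from 3 plates in A8 and V9, 2 in A11, A12 and V5, and 1 in A7, A10 and V7.

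**Figure D2:**
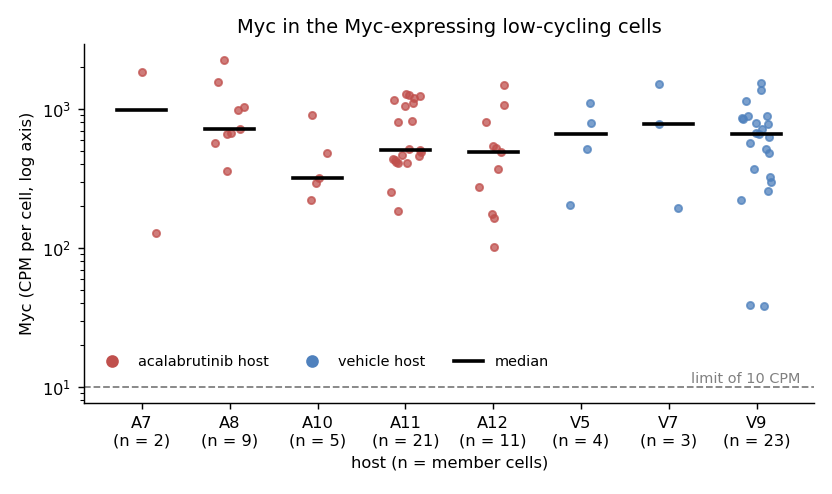
Myc in each of the 78 members (CPM per cell, log axis) by host, red for acalabrutinib and blue for vehicle, with bars for the median and a dashed line at the limit of 10 CPM. Host medians lie between 321 CPM in A10 and 980 CPM in A7, and 2 cells of V9 lie below 50 CPM.

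Members were compared with Myc-zero low-cycling cells of the same host to find which other transcripts accompany *Myc*. For each class of a host the counts of its cells were added, in the 5 hosts where both classes held at least 5 cells (A8, A10, A11, A12 and V9; 69 members and 177 Myc-zero cells), which gave between 3786086 and 19548099 counts for members and between 11665705 and 31663008 for Myc-zero cells. V9 was the only vehicle host among them. Within a host the classes may also differ in their share of BTKC481S and BTKWT cells, and so in drug response. This was not tested and cannot be told apart from the class difference, since the cells carry no genotype. In such sums, more cells with a transcript and more transcript per cell cannot be told apart. Counted over all 78 members and 257 Myc-zero cells, which differed in depth as given above, *Cd40* had a count in 66.7% and 28.02% of cells, *Nfkbia* in 82.1% and 35.8%, *Ncl* in 88.5% and 75.1%, and *Bach2* in 97.4% and 96.9%. The quasi-likelihood test of edgeR, with the host as a block, called none of 11378 genes at an adjusted p under 0.05 (0%), with 682 at an unadjusted p under 0.05. DESeq2 called 1405, of which 254 were higher in members and 1151 lower. Because edgeR made no call, limma-voom with the same block was added on the 7642 genes whose mean reached 20 CPM, after its filter and weights had been compared on these data. It called 148 genes (1.94%), 76 higher in members (0.995%) and 72 lower (0.942%). The word called refers to limma-voom below, as do SE, adjusted p and the range under other settings unless another test is named. The other settings are further limma-voom fits and leave out every edgeR and DESeq2 fit. In limma-voom the SE and p draw on a variance shared across genes. They do not measure a gene's own spread between hosts alone. By edgeR 147 of the 148 had the same direction and 118 an unadjusted p under 0.05, with adjusted p between 0.189 and 0.986. The calls thus depended on the tool, while direction did so for 1 gene. The median log2 difference of all genes was -0.06 by limma-voom, -0.49 by edgeR and -0.37 by DESeq2, and changes are read against the first. Of the tested genes 4.21% were higher in members in 5 of 5 hosts and 6.63% lower in 5 of 5. Genes whose classes do not overlap are a part of these, so their shares are at most 4.21% and 6.63%. They were not counted over all genes. Many genes below were named for a large difference, so a lack of overlap is a description only.

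Genes of the response to CD40 and NF-kB lay mostly on the higher side. Of 17 listed genes tested, 16 were higher in members, 6 were called higher and none lower, and 9 were higher in every host, with a median log2 difference of 0.75. By edgeR the median of the list was 0.89. *Cd40* (ENSMUSG00000017652), the receptor for T cell CD40 ligand, is on the lists of T cell help and of LZ markers and not on this one. It stood at 377, 238, 367, 392 and 421 CPM in the members of A8, A10, A11, A12 and V9, an order kept in every list of values here, and at 115, 181, 72.5, 212 and 115 CPM in their Myc-zero cells. The lowest member value lay above the highest Myc-zero value (1.48 ± 0.27 (SE), adjusted p = 0.00242, 0.000197 to 0.565 under other settings). *Icam1* (ENSMUSG00000037405), a gene of the NF-kB list for an adhesion molecule that steadies contact with T cells, was at 367, 425, 436, 219.9 and 263 CPM against 146, 95, 130.5, 120.4 and 90.3 CPM. Again the classes did not overlap (1.41 ± 0.28 (SE), adjusted p = 0.00457, 0.00096 to 0.224 under other settings).

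Of the NF-kB inhibitor and subunit genes, *Nfkbia*, *Nfkb2* and *Nfkb1* were called. *Nfkbia* (ENSMUSG00000021025), which encodes the inhibitor IkB-alpha and is itself an NF-kB target, was at 458, 561, 548, 464 and 457 CPM in members and 84.5, 203, 85.7, 238 and 129.6 CPM in Myc-zero cells, without overlap (1.70 ± 0.26 (SE), adjusted p = 0.000291, 3.25e-06 to 0.145 under other settings). *Nfkb2* (ENSMUSG00000025225), the p100 precursor of the noncanonical pathway, was at 356, 580.3, 376, 321 and 426 CPM against 65.6, 32, 125, 105 and 147 CPM, also without overlap (1.71 ± 0.29 (SE), adjusted p = 0.0008, 0.000107 to 0.619 under other settings). *Birc3* (ENSMUSG00000032000), an inhibitor of apoptosis bound to TRAF proteins, was at 528 ± 118 CPM (mean ± SD, n = 5) against 171 ± 63.3 CPM and did not overlap. *Nfkb1* overlapped between the classes, and the members of A10 held 42.5 CPM against 319 in their Myc-zero cells, opposite to the other 4 hosts. *Cd83* (ENSMUSG00000015396), which stabilizes MHC class II at the surface, was at 2847, 2357, 2347, 1686 and 2103 CPM against 1394, 2008, 1496, 1386 and 1344 CPM. It was higher in 5 of 5 hosts, by less than the other called genes of the list (0.57 ± 0.06 (SE), adjusted p = 6.75e-07, 4.49e-25 to 0.0103 under other settings). By the edgeR test *Cd83* was at 0.54 ± 0.13 (SE) with an adjusted p of 0.566. *Rel*, *Rela*, *Relb*, *Tnfaip3* and *Traf3* were not called, at log2 differences of 0.19, 0.66, 0.75, 1.46 and 0.85, and *Map3k14*, the kinase that activates the noncanonical pathway, was at -0.93.

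The kB letters were counted in the promoters of this group. The list was written from general knowledge, with earlier results of these data known. Its genes were chosen for their link to NF-kB, so the share is a description only. The shares were not tested against each other. Among RefSeq promoters (GRCm38.p6, 250 bases before to 50 after each gene's start, another build than the counts), the letters GGG and TTTCC with any 2 bases between them occurred on either strand in 5 of the 17 list genes with a promoter (29.4%), in 1.62% of all 27025 promoters, in 1.66% of those of tested genes and in 4 of 62 promoters of genes called higher (6.45%), as well as in 2 of 62 of genes called lower (3.23%). The 30-base windows of the 5 list genes are shown because *Nfkb2* and *Nfkbia* were among the genes called, with the matched letters in capitals and read along the gene's strand.
Nfkb2, chr19:46304716-46304745, plus strand: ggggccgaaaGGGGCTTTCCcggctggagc
Nfkbia, chr12:55492657-55492686, minus strand: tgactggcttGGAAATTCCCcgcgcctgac
Rel, chr11:23771041-23771070, minus strand: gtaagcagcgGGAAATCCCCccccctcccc
Traf3, chr12:111166350-111166379, plus strand: ggcggcccgcGGGGATTTCCagcgcgcgag
Tnfaip3, chr10:19015403-19015432, minus strand: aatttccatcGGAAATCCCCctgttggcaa
The match began 11 bases before the start of *Nfkb2* and 29 before that of *Nfkbia*. A match describes letters in a window and does not show that a factor was bound.

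Receptors through which T cells help B cells were mixed. Of 15 tested, 8 were higher in members, 5 were called higher (*Cd40*, *Icam1*, *Il21r*, *Slamf1* and *Cd86*) and none lower, and the median was 0.05. *Il21r* (ENSMUSG00000030745), the receptor for the T follicular helper cytokine IL-21, was at 951, 1204, 1032, 959.8 and 1005 CPM in members and 696, 535, 707, 552 and 726 CPM in Myc-zero cells, without overlap (0.51 ± 0.10 (SE), adjusted p = 0.00586, 6.26e-06 to 0.493 under other settings). *Slamf1*, a SLAM family adhesion receptor, was at 465 ± 106 CPM against 240.3 ± 106.9 CPM, and *Cd86*, the ligand of CD28, at 729 ± 152 CPM against 488 ± 165 CPM. Each was higher in 5 of 5 hosts with overlap between the classes. *Tnfrsf14*, which encodes HVEM, was not called (84.1 ± 76.7 CPM against 49.3 ± 11.5 CPM, with 3 of 5 hosts higher). *Icosl*, *Slamf6*, *Il4ra* and *Pdcd1lg2* were not called and had log2 differences of -0.28, -1.20, -0.60 and -1.45.

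**Figure D3:**
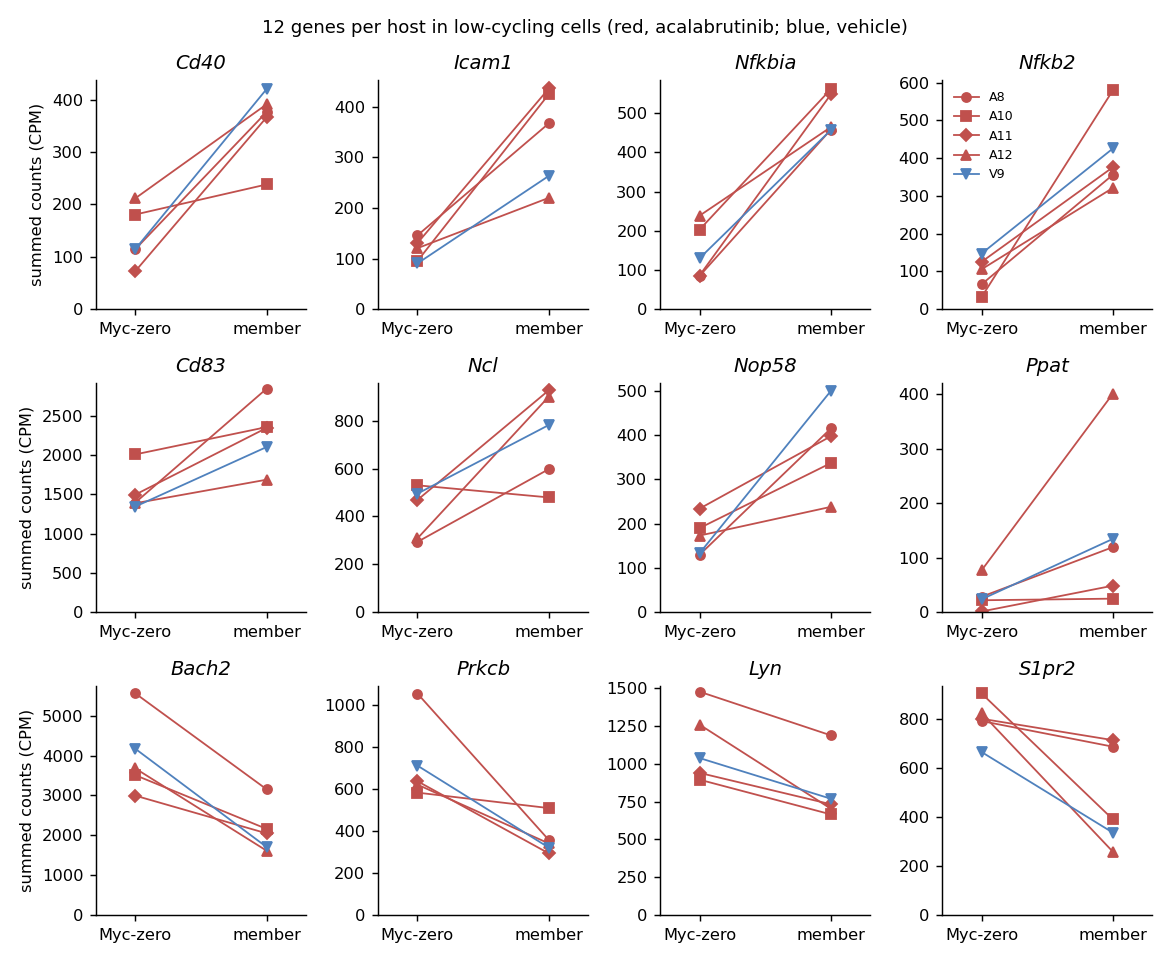
CPM of 12 genes in counts summed over Myc-zero cells and members (horizontal axis) of each of 5 hosts, 1 line per host, red for acalabrutinib and blue for vehicle, with every vertical axis starting at 0. Cd40, Icam1, Nfkbia and Nfkb2 do not overlap between the classes, Ncl is lower in the members of A10 alone, and Bach2, Prkcb, Lyn and S1pr2 are lower in the members of all 5 hosts.

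Genes of ribosome assembly were uniformly on the higher side. Of 25 listed genes 25 were higher in members by limma-voom, 7 were called and 5 were higher in every host, with a median log2 difference of 0.85. *Ncl* (ENSMUSG00000026234), the nucleolar protein nucleolin, was at 598, 479, 928, 901 and 782 CPM against 293, 530.0, 469, 308 and 495 CPM. It was higher in 4 of 5 hosts, A10 being the exception (0.85 ± 0.15 (SE), adjusted p = 0.00114, 7.9e-05 to 0.079 under other settings). *Nop58* (ENSMUSG00000026020), a core protein of the box C/D particles that methylate ribosomal RNA, was at 415, 337, 398, 238 and 500.4 CPM against 129, 189.8, 234, 173 and 133 CPM and did not overlap (1.16 ± 0.25 (SE), adjusted p = 0.0109, 0.00317 to 0.691 under other settings). *Npm1*, *Pa2g4*, *Wdr43*, *Ddx21* and *Mybbp1a* were also called, at log2 differences of 0.63, 1.16, 1.11, 1.57 and 1.18. These 5 were higher in 4, 4, 4, 4 and 3 of the 5 hosts. *Ddx21*, a helicase of ribosomal RNA processing, was at 0.792 CPM in the members of A10 and at 197 to 540.4 CPM in those of the other hosts.

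The E-box letters CACGTG, which read the same on both strands, occurred in 5 of the 20 ribosome list genes with a promoter (25%) and 7 of 18 of the metabolism and chaperone list (38.9%), against 7.24% of all promoters and 11.1% of those of tested genes. Among genes called higher they occurred in 7 of 62 promoters (11.3%), the same share as among genes called lower. Windows are shown for the 5 ribosome list genes, of which *Mybbp1a* and *Wdr43* were called and *Nop2*, *Pes1* and *Utp20* were not.
Mybbp1a, chr11:72441347-72441376, plus strand: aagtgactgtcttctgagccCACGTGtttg
Wdr43, chr17:71616220-71616249, plus strand: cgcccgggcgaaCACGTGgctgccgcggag
Nop2, chr6:125131811-125131840, plus strand: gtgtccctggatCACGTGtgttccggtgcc
Pes1, chr11:3963965-3963994, plus strand: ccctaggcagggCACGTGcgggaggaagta
Utp20, chr10:88826765-88826794, minus strand: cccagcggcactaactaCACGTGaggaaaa
The ribosome and metabolism shares rest on few promoters, and were not tested against that of tested genes. Both lists were written from general knowledge as genes induced by MYC, with earlier results of these data known. The shares are descriptions only. Among genes called higher or lower the share was close to that of tested genes.

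Metabolic genes leaned the same way with fewer calls. All 17 tested genes of the MYC-induced metabolism and chaperone list were higher (median 0.49), with 2 called. *Eif5a* (ENSMUSG00000078812), a translation factor, was at 727, 679, 882, 851 and 865 CPM in members and 456, 595, 639.7, 598 and 562 CPM in Myc-zero cells, without overlap (0.48 ± 0.11 (SE), adjusted p = 0.0226, 2.35e-05 to 0.448 under other settings), and *Shmt2*, of mitochondrial serine metabolism, was at 307 ± 85.6 CPM against 123 ± 77.5 CPM. *Hspd1* and *Ran* were higher in 5 of 5 hosts but were not called. Of 19 nucleotide synthesis genes 17 were higher (median 0.86), with 2 called: *Ppat*, the first enzyme of purine synthesis, and *Uck2*, a uridine and cytidine kinase. *Ppat* (ENSMUSG00000029246) was at 119, 24.6, 48.5, 402 and 135 CPM against 28, 21.6, 0.977, 76.6 and 23.3 CPM. The members of A12 stood far above the rest, and those of A10 barely exceeded their Myc-zero cells (2.32 ± 0.54 (SE), adjusted p = 0.0203, 0.00415 to 0.848 under other settings). *Uck2* was at 146 ± 75.3 CPM against 45.1 ± 14.4 CPM without overlap. Of 21 genes of mTORC1 and nutrient uptake 18 were higher (median 0.54), and 1 was called, *Slc7a1*, a carrier of cationic amino acids, at 285 ± 88.2 CPM against 117 ± 53.3 CPM.

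Genes of the MAX network, which share or compete for the MYC partner, gave no call among 8 tested. *Max* was at 135, 75.3, 81.7, 76.2 and 76 CPM in members and 77.3, 65.8, 74.4, 46 and 115 CPM in Myc-zero cells. *Tfap4*, a known MYC target that encodes AP4, was at 37.8 ± 45.1 CPM against 4 ± 4.71 CPM. Its spread was larger than its mean, with 4 of 5 hosts higher. The early response list to the BCR gave no call among 10 tested and a median of 0.12. *Nr4a1* was at 33.1 ± 38.6 CPM against 10.8 ± 6.65 CPM and *Egr1* at 133 ± 97 CPM against 115 ± 65.5 CPM. *Cd69* did not overlap between the classes (84.5, 121, 119, 87.2 and 197 CPM against 48.3, 4.8, 49.6, 21.2 and 35.6 CPM) and was not called (adjusted p = 0.185, 0.061 to 0.907 under other settings).

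Cell cycle genes outside the rule showed few calls. Of 15 G1 genes *Cdk6*, a partner of D cyclins, was called higher and *Ccnd3*, a D cyclin of GC B cells, lower. *Cdk6* (ENSMUSG00000040274) was at 113, 115, 324, 613 and 338 CPM against 53.8, 154, 131, 189 and 163 CPM, with A10 in the opposite direction (1.24 ± 0.26 (SE), adjusted p = 0.00802, 0.00191 to 0.512 under other settings). *Ccnd3* (ENSMUSG00000034165) was at 342, 819.8, 414, 369.9 and 301 CPM against 869, 443, 585, 619 and 657 CPM (-0.82 ± 0.19 (SE), adjusted p = 0.0206, 0.00184 to 0.342 under other settings). Host A10 again went the other way, with the highest value among members. *Ccnd2* was at 61.7 ± 49.3 CPM against 12.5 ± 16.2 CPM and was not called, with 4 of 5 hosts higher. Of 30 S phase genes outside the rule 21 were higher and none was called (median 0.33), among them *Mcm7* at 331 ± 167 CPM against 177 ± 56.5 CPM. The 23 G2 and M genes outside the rule had a median of -0.14 and no call, but hosts differed widely. All 30 genes of that list summed to 345, 639, 1587, 5121 and 1842 CPM in members and to 2129, 1658, 948, 1683 and 2871 CPM in Myc-zero cells. Members were thus lower in A8, A10 and V9 and higher in A11 and A12, and the sum of the members of A12 stood above that of the Myc-zero cells of every host, although each cell lay below the limit of the M score.

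Of 21 GC transcription factors tested, 2 were called lower in members (*Bach2* and *Pax5*) and none higher. The median was -0.30 and 5 were higher. By edgeR the median was also -0.30, which lay above the median of the 11378 genes of that fit (-0.49) and close to the edgeR median of the 7642 genes used for the calls (-0.34). *Bach2* (ENSMUSG00000040270), a repressor of plasma cell and growth genes, was at 3149, 2156, 2045, 1608 and 1700.0 CPM in members and 5558, 3506, 2993, 3675 and 4169 CPM in Myc-zero cells. It was lower in the members of 5 of 5 hosts, and had the smallest limma-voom adjusted p of the genes described here (-1.02 ± 0.08 (SE), adjusted p = 1.8e-09, 1.01e-35 to 0.0303 under other settings). By the edgeR test *Bach2* was at -0.94 with an adjusted p of 0.189. *Bcl6* (ENSMUSG00000022508), the master regulator of GC B cells, was at 349, 179.9, 346, 245 and 268 CPM against 516, 490.1, 385, 479 and 366 CPM. The classes did not overlap, but the gene was not called (-0.56 ± 0.22 (SE), adjusted p = 0.314, 0.111 to 0.814 under other settings). *Batf* (ENSMUSG00000034266), an AP-1 factor of class switching and GC responses, was at 80.9, 96.4, 233, 109 and 228 CPM against 13.9, 0, 30.7, 18.3 and 16 CPM, without overlap and not called (3.25 ± 1.04 (SE), adjusted p = 0.133, 0.0173 to 0.574 under other settings). *Irf4*, a factor of plasma cell fate induced by CD40, was at 79, 0, 136, 96.3 and 115 CPM against 0, 21.8, 0, 24.4 and 0.881 CPM, with A10 opposite to the other hosts. *Batf* and *Irf4*, like *Tfap4*, *Nr4a1* and *Ccnd2* above, had a mean under 20 CPM in Myc-zero cells and passed the filter on low values through the members, so that they could hardly have come out lower. *Foxo1*, a dark zone factor, was at 577 ± 232 CPM against 819.8 ± 152 CPM and was not called.

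Of 23 components of the BCR pathway tested, 3 were called lower in members and none higher. The median was -0.37, and 3 of the 23 had a difference above 0. In 5 of 5 hosts 1 was higher and 9 were lower. By edgeR the median was -0.38, between the medians of the 11378 and of the 7642 genes (-0.49 and -0.34), so the side of the list relative to all genes turned with the filter. *Prkcb* (ENSMUSG00000052889), protein kinase C beta, which links the BCR to NF-kB, was at 356, 508, 293, 339.9 and 320.0 CPM in members and 1053, 582, 636, 619.9 and 710.3 CPM in Myc-zero cells, without overlap (-1.17 ± 0.18 (SE), adjusted p = 0.000295, 3.67e-05 to 0.0987 under other settings). *Lyn* (ENSMUSG00000042228), the kinase next to the receptor, was at 1189, 666, 733, 703 and 769 CPM against 1478, 896, 941, 1260.3 and 1039 CPM. Every host was lower in members, with overlap, since the members of A8 lay above the Myc-zero cells of A10, A11 and V9 (-0.52 ± 0.11 (SE), adjusted p = 0.00557, 0.000244 to 0.224 under other settings). *Pik3ap1*, the adaptor BCAP, was at 1049 ± 256 CPM against 1410.3 ± 283 CPM and lower in 5 of 5 hosts. *Btk* (ENSMUSG00000031264), the drug's target, was at 245, 123, 344, 275 and 255 CPM against 510.2, 149, 442, 431 and 248 CPM, lower in 4 of 5 hosts and not called (-0.47 ± 0.22 (SE), adjusted p = 0.513, 0.209 to 0.84 under other settings). The B cell markers, 0 of 8 higher, held 2 genes called lower, *Pax5* again and the tetraspanin *Cd37*, at 745 ± 92.5 CPM against 948 ± 127 CPM for the latter. By limma-voom the median of these markers was -0.34, below that of all genes. By edgeR it was -0.28, above both medians of all genes, so the side of this list turned with the tool. *Plcg2* was lower in 5 of 5 hosts and not called.

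Among GC and LZ markers the direction split. Of 5 LZ markers tested 5 were higher and 4 were called (*Cd40*, *Nfkbia*, *Cd86* and *Cd83*), of which *Cd83* and *Nfkbia* are also on the NF-kB list. Of 7 GC markers 2 were higher and 1 was called lower, *S1pr2* (ENSMUSG00000043895), the receptor that holds B cells within the follicle center. It was at 686, 389, 713, 257 and 335 CPM against 791, 904, 800.4, 823 and 665 CPM (-0.67 ± 0.18 (SE), adjusted p = 0.04995, 0.00233 to 0.67 under other settings). The dark zone list of 9 gave 1 call in each direction. *Samsn1*, an adaptor that dampens B cell activation, was at 669 ± 251 CPM against 298 ± 60.2 CPM without overlap, and *Hmces*, which shields abasic DNA, was at 318 ± 119 CPM against 572 ± 95.8 CPM. *Cxcr4*, the receptor for entry into the dark zone, was low in both classes (22.3 ± 20.9 CPM against 39.6 ± 19.2 CPM) and not called.

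Survival, cytokine and plasma cell lists held 1 or 2 calls each. *Bcl2l1* (ENSMUSG00000007659), which encodes the survival factor BCL-XL, was at 384, 315, 75, 159 and 274 CPM in members and 43.4, 85.8, 31.9, 96.9 and 75.2 CPM in Myc-zero cells (1.73 ± 0.41 (SE), adjusted p = 0.0208, 0.00144 to 0.669 under other settings). It was higher in every host, and the sole call among 7 anti-apoptotic genes. None of 8 pro-apoptotic genes was called. In the cytokine list of 12, *Pim1*, a kinase induced by STAT factors, was at 243 ± 47.1 CPM against 88.3 ± 45.8 CPM without overlap, and *Stat3*, which carries the IL-21 signal, at 532 ± 263 CPM against 347 ± 119.7 CPM, with the members of A10 at 106 CPM. *Stat3* was near 0 difference (-0.018 on the log2 scale) by edgeR when hosts with 2 or more cells per class were used. *Jchain*, which joins secreted immunoglobulin, was called lower at 631 ± 139 CPM against 834 ± 169 CPM, and *Hspa5*, the chaperone BiP, higher at 872 ± 134 CPM against 629 ± 218 CPM. Among 12 genes of MHC class II presentation *Cd74*, the invariant chain, was called lower, at 1799 ± 179 CPM against 2133 ± 221 CPM, and the median was -0.11. By edgeR the median of that list was -0.12, above the edgeR median of all genes, whereas by limma-voom it lay below. Of 4 cell death and stress genes tested none was called, and of 6 memory B cell genes *Bcl2l1* alone.

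**Figure D4:**
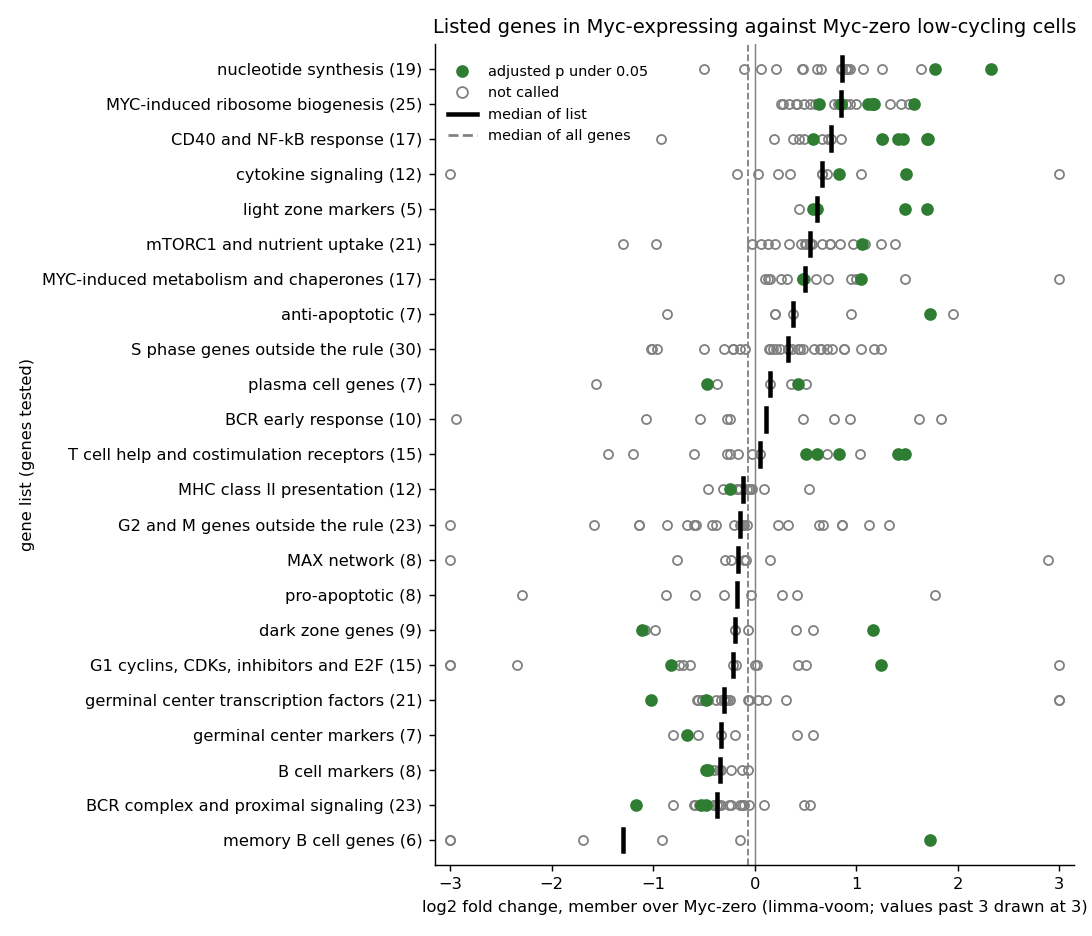
Log2 fold change of members over Myc-zero cells (limma-voom; horizontal axis, values past 3 drawn at 3) for the tested genes of 23 lists, 1 circle per gene, filled where the adjusted p was under 0.05, with a bar at each list's median and a dashed line at the median of all genes (-0.06). Nucleotide synthesis, ribosome biogenesis and CD40 and NF-kB genes lie to the right (medians 0.86, 0.85 and 0.75), and BCR pathway genes to the left (-0.37).

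The largest called differences outside the lists were headed by *Mir155hg* (ENSMUSG00000097418), the host transcript of miR-155, which is needed for GC responses. It was at 429, 164, 482, 284 and 433 CPM in members and 34.8, 1.89, 115, 65.2 and 54.2 CPM in Myc-zero cells, without overlap (2.58 ± 0.41 (SE), adjusted p = 0.000384, 1.52e-06 to 0.217 under other settings). The mature product, which was not measured here, is shown with its seed (bases 2 to 8) in capitals, from RefSeq GRCm38.p6, chr16:84714143-84714165, plus strand.
mmu-miR-155-5p: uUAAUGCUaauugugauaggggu
*Ly75* (ENSMUSG00000026980), which encodes the endocytic receptor DEC-205, was at 114, 263, 233, 161 and 322 CPM against 25.2, 61.5, 98.7, 57.7 and 17.5 CPM (1.98 ± 0.50 (SE), adjusted p = 0.0333, 0.00896 to 0.599 under other settings). *Net1*, an exchange factor for RhoA, was at 433 ± 97.7 CPM against 119 ± 28.6 CPM. Neither overlapped between the classes. *Bcap29*, an endoplasmic reticulum protein, was at 202 ± 60.9 CPM against 55.9 ± 25.4 CPM, *Utp14a* and *Wdr18*, both of ribosome assembly, at 255 ± 106.7 CPM against 79.6 ± 53.4 CPM and 164 ± 82.1 CPM against 55.3 ± 28.8 CPM, and the zinc finger gene *Zfp362* at 214 ± 83.5 CPM against 60.8 ± 29 CPM.

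At the lower end, *Ift172* and *Calcoco1* had almost no counts in members, at 0 to 0.102 CPM against 26.6 to 106 CPM and at 0 to 0.264 CPM against 19.8 to 69.4 CPM. Both passed the filter on low values through the Myc-zero cells alone and could only come out lower, so no fold is given and their calls are not read as a result. A count was found in 5.13% of members and 14.4% of Myc-zero cells for *Ift172*, and in 7.69% and 8.95% for *Calcoco1*. *Lax1*, an adaptor that restrains antigen receptor signaling, was at 203, 92.2, 121, 94.9 and 108 CPM against 441, 324, 353, 261 and 316 CPM and did not overlap (-1.53 ± 0.34 (SE), adjusted p = 0.0139, 0.00252 to 0.505 under other settings). *Arhgap4*, a GTPase activator, was at 114 ± 58.5 CPM against 289 ± 46 CPM, *Ankrd44* at 173 ± 84.2 CPM against 394 ± 86.5 CPM, *Herc3* at 127 ± 80.4 CPM against 308 ± 53.6 CPM and the deacetylase gene *Hdac9* at 248 ± 129.8 CPM against 531 ± 101.2 CPM. All 4 were lower in the members of 5 of 5 hosts, which the rule that named them required.

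Against Myc-zero cells nearest in genes detected and S score, 66 of 7646 genes tested were called. Of all genes tested, 25 were called higher and 41 lower, of which 16 and 35 were among the earlier calls. The CD40 and NF-kB list had a median of 0.73 with 3 calls. *Nfkb2*, *Icam1* and *Birc3* were not among them (adjusted p = 0.524, 0.0919 and 0.0996), at log2 differences of 1.45, 1.93 and 2.17 against 1.71, 1.41 and 1.46 before. The difference of *Nfkb2* was thus smaller and those of *Icam1* and *Birc3* larger. *Cd40*, of the T cell help list, was 1.71 higher on the log2 scale (adjusted p = 0.0482), while *Slamf1* and *Cd86* of that list were no longer called (0.62 and 0.46 against 0.83 and 0.61 before, adjusted p = 0.521 and 0.494). The ribosome list had a median of 0.67 with 1 call, *Ncl*, at 0.92 (adjusted p = 0.0138). Of the other ribosome genes called before, *Npm1*, *Pa2g4*, *Wdr43*, *Mybbp1a* and *Nop58* were at 0.63, 1.25, 1.09, 1.17 and 1.18, each within 0.1 of the earlier value, and *Ddx21* was at 0.9965, against 1.57 before. The lists of metabolism and chaperones, nucleotide synthesis, mTORC1, cytokine signaling and anti-apoptotic genes had no call left, at medians of 0.54, 0.59, 0.34, 0.77 and 0.48. *Shmt2*, *Uck2* and *Bcl2l1*, for instance, had adjusted p of 0.670, 0.715 and 0.530 at log2 differences of 0.85, 1.52 and 3.38, against 1.04, 1.77 and 1.73 before. The lists of G1, memory, plasma cell, MHC class II, B cell marker and GC marker genes had no call either. There *Cdk6* was at 1.01 (1.24 before), *Ccnd3* at -0.59 (-0.82), *Jchain* at -0.44 (-0.47), *Hspa5* at 0.30 (0.42), *Cd74* at -0.10 (-0.24), *Pax5* at -0.34 (-0.48), *Cd37* at -0.34 (-0.46) and *S1pr2* at -0.51 (-0.67), each nearer to 0 and in the same direction. On the lower side *Bach2* was at -0.92 (adjusted p = 0.000669), and the BCR pathway list at a median of -0.23 with 3 calls, where *Plcg2* (adjusted p = 0.0294) took the place of *Lyn* (-0.33, adjusted p = 0.224). The median of all genes was 0.01 in this comparison.

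Members were also set beside the 50 *Myc*-expressing cells of the S-high part. In the 5 hosts where each held 4 cells or more (A10, A11, A12, V5 and V9), edgeR called none of 9001 genes (0%), with 253 at an unadjusted p under 0.05, and DESeq2 called 265. The S phase genes outside the rule were lower in the low-cycling members for 31 of 31 genes, a list related to the S score that separates these classes and so not independent of it. The ribosome list was higher for 20 of 25 genes and the CD40 and NF-kB list for 16 of 19, with medians of 0.71 and 0.97 where the median of all genes was 0.06. *Cd86* was at 823 ± 302 CPM in low-cycling members and 372 ± 177 CPM in S-high cells, *Il21r* at 1068 ± 100.9 CPM against 552 ± 217 CPM, and *Slamf1* at 596 ± 381 CPM against 306 ± 238 CPM. *Nfkb2* was at 447 ± 107.1 CPM against 204 ± 116 CPM. Each of the 4 was higher in 5 of 5 hosts, as were 339 of the 9001 genes (3.77%, with 3.5% lower in 5 of 5), and they were picked after their values were seen. *Cd40* (341 ± 75.9 CPM against 269 ± 130.2 CPM), *Cd83* and *Nfkb1* were higher in 3 of 5. None of these passed the edgeR adjustment.

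The spread among the 78 members was described over cells, which share hosts and plates, with the mean log2(CPM + 1) of a list as its score. Spearman's rho between *Myc* CPM, the value that chose the members, and the CD40 and NF-kB score was 0.48 over all members, but hosts differed. It was 0.34 in A11 (21 cells), -0.44 in A12 (11 cells) and 0.68 in V9 (23 cells), the hosts with at least 10 members. With the ribosome biogenesis score *Myc* CPM gave 0.08 over all members and -0.22, -0.12 and -0.31 in the same hosts. The ribosome and NF-kB scores correlated at 0.15 over all members. The relation with the NF-kB score thus did not hold in every host. Over all members *Myc* CPM correlated at -0.09 with the S score, 0.04 with genes detected and 0.08 with total counts. The CD40 and NF-kB score had a median of 4.08 (1.20 to 6.35) in members and 2.28 (0 to 4.93) in Myc-zero cells, and the ribosome score 3.83 (0.83 to 7.85) against 1.66 (0 to 5.96). Both ranges overlapped between the classes. In the *Myc*-expressing S-high cells the medians were 3.29 and 4.10, and in the M-high cells 2.78 and 5.26. The median ribosome score per cell was thus lower in members than in S-high cells, opposite to the direction of the summed counts above. The scores cover cells of all 8 hosts and the sums 5 hosts. The *Myc*-expressing S-high cells also had a median of 4690 genes detected, against 4130 in members. The part of either in the reversal was not tested.

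**Figure D5:**
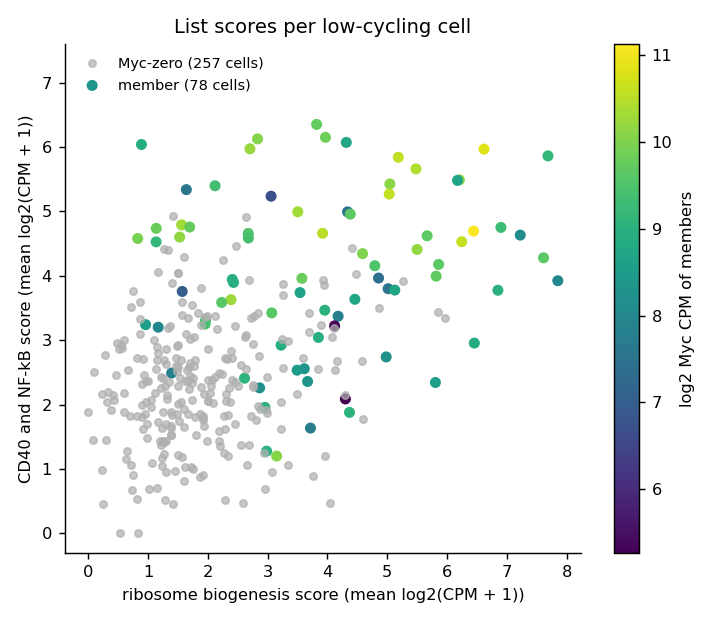
CD40 and NF-kB score (vertical axis) against ribosome biogenesis score (horizontal axis), both mean log2(CPM + 1), for 257 Myc-zero cells (grey) and 78 members colored by log2 Myc CPM. Members reach higher on both axes and spread over the whole ribosome range at a high NF-kB score.

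No difference between the transcripts of members from acalabrutinib and vehicle hosts was detectable by edgeR at this number of hosts. In a fit of 4 acalabrutinib hosts and V9, where the vehicle arm is 1 host assumed to vary like the others, edgeR called none of 15664 genes (0%), with 1089 at an unadjusted p under 0.05, whereas DESeq2 called 433. With at least 3 members per host, which adds V5 and V7, edgeR called none of 9290 and DESeq2 117. Over those 7 hosts *Myc* was at 675 ± 222 CPM (SD, n = 4) with acalabrutinib and 733 ± 76.1 CPM (n = 3) with vehicle. *Nfkbia* was at 508 ± 54.2 against 548 ± 242 CPM, *Cd40* at 343 ± 70.8 against 389.7 ± 91.1 CPM and *Bach2* at 2240 ± 651 against 1850 ± 184 CPM, each with overlapping hosts. Of the 9290 genes, 239 did not overlap between the treatments and were higher with acalabrutinib (2.57%), and 172 were lower (1.85%). *Birc3* was among the latter, at 397 to 644 CPM with acalabrutinib and 661 to 1148 CPM with vehicle, as were *Cd69*, at 84.5 to 121 CPM and 181 to 748 CPM, and *Ctss*, which encodes cathepsin S, at 161 to 300 CPM and 325 to 461 CPM. These genes were picked after their values were seen, and none passed the edgeR adjustment. Whether the difference between members and Myc-zero cells depended on treatment was tested with edgeR, which called none of 11378 genes (0%), with 100 at an unadjusted p under 0.05. DESeq2 called 97 for the same term. V9 alone represented vehicle in that fit. With at least 3 cells per host and class, which gives 4 hosts against 3, edgeR called none of 10451 genes, with 229 at an unadjusted p under 0.05.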

How the data were processed

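SMART-seq2 libraries of single LZ GC B cells were mapped by the authors to GRCm39 (release 107) with STARsolo 2.7.10a, counting reads that overlap exons or introns of a gene. The submitters' notes also name GRCm38, with no role given. The authors deposited 1 matrix of whole-number counts, 56691 genes by 637 cells, without normalization. Reads at exactly the same position were counted once. As the protocol tags no molecules, amplified copies at other positions remain. Intervals therefore cover counting error only. The lowest cell had 1801 genes and the highest mitochondrial share was 2.68%, within the filter of the study for every cell. A cell held 132412 to 1825420 counts. Each cell was sorted into a well of its own, and doublets were not called. Symbols shared by several entries (77) were taken at the first entry, and 2 listed symbols were not in the file.

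CPM, scores and shares were computed in Python 3.11.15 (pandas 2.3.3, SciPy 1.17.1, NumPy 2.4.6). Summed counts were tested in R 4.3.3 with edgeR 4.0.16 (TMM scaling, filterByExpr, quasi-likelihood test), DESeq2 1.42.0 and limma 3.58.1 (voom), each with Benjamini-Hochberg adjustment. The host entered as a block, since both classes of a host come from the same animal. Shares were compared by exact permutation and sign-flip tests over hosts. The edgeR, DESeq2 and limma-voom fits of members against Myc-zero cells were tried on simulated counts with known changes. Those counts had the same spread setting for every gene, unlike these data. The division into classes was tried on a small simulated matrix. The other fits and the exact tests were not tried on simulated data. The members and the gene lists were chosen with earlier results of these data known. The 27 lists were written from general knowledge. Named genes were the largest differences in each direction among genes called and changed the same way in every host, plus listed genes and genes the study names. Since edgeR called none, this rule was applied to the limma-voom calls. Score genes and *Myc* were left out of every count of calls. Alternatives were DESeq2, other filters, no host block, thinning, other *Myc* limits, Myc-zero cells matched on depth or S score, and leaving out single hosts. Genotypes were not assigned to cells and are not analysed here.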

Additional observations from a re-analysis of the deposited data

Results flagged for a closer look

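For the genes described above, the value of 1 host was compared with those of the others in the members and in the Myc-zero cells. Of 168 groups of 5 hosts, 13 had a host far from the rest by Dixon's test, and chance gives about 1 in 20. In members, A8 was high for *Max* (135 CPM, next 81.7), *Lyn* (1189 CPM, next 769) and *Lax1* (203 CPM, next 121). A10, with 5 members the smallest group, was high for *Mthfd2* (324 CPM), *Ccnd3* (820 CPM, next 414) and *Jchain* (872 CPM). In Myc-zero cells, A8 was high for *Foxo1* (1091 CPM), *Prkcb* (1053 CPM) and *Arhgap4* (368 CPM) and low for *Samsn1* (191 CPM, next 310.4). A10 was high for *Cd83* (2008 CPM) and *Jchain* (1128 CPM), and V9 was low for *Tnfrsf14* (28.9 CPM). *Jchain* was thus high in both classes of A10, and every other gene stood out in 1 class.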

How the results depend on the processing

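The host was the block in every comparison of members with Myc-zero cells, because the classes pair within an animal. Without this block edgeR called 2 genes and limma-voom 28 in place of 0 and 148. For edgeR the count was 1405 by DESeq2, 1 without the filter on low counts, 1 by limma on mean CPM per cell and 4 with at least 2 cells per host and class, and it was 0 when each host was left out. For limma-voom, chosen after seeing the data, the edgeR test on the same genes gave 0, a mean of at least 50 CPM 231 and the edgeR filter 33 (6 higher in members and 27 lower, against 76 and 72). Myc-zero cells nearest in genes detected gave 55 (17 higher), in S score 45 (13 higher) and in both 66 (25 higher). Dropping more cells by S score, up to the median, gave 98, at least 10 cells per host and class 87, and the first plate of each host 25 (2 higher and 23 lower). Leaving out 1 host gave 61 to 205, with the lowest count without V9. By DESeq2 433 genes differed by treatment in members (117 with at least 3 members per host), 97 in the class difference by treatment and 265 between low-cycling and S-high *Myc*-expressing cells, where edgeR gave 0, also when single hosts were left out.

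No share difference passed its test under any setting tried. Leaving out 1 host moved the S-high minus low-cycling difference between 2.71 and 5.57 percentage points, and the M-high one between -0.32 (without A10) and 6.04. The treatment difference moved between -2.62 (without A11) and 10.7 (without V9), and was -2.10 without V5 and -1.68 without V7. Of the called genes described, *Stat3* changed sign (-0.018, edgeR, at least 2 cells per host and class). Of those not called, *Max* and *Egr1* also differed in sign, at -1.45 to 0.42 and -0.99 to 0.63 over the limma-voom settings. The causes of these changes were not tested. Each sum of members came from 5 to 23 cells. With every cell thinned to equal counts limma-voom called 127 genes.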
